A study of Mus musculus with 11 samples.

Results

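The genes described here encode core parts of MHC class II antigen presentation: the class II chains H2-Aa, H2-Ab1 and H2-Eb1, the invariant chain Cd74, the transactivator Ciita and the protease Ctss. They were chosen by symbol, with earlier results of these data known. Each of the 6 had exactly 1 probe set annotated to its symbol alone, so all 6 were measured among 19938 genes. The arrays compared 6 sorted populations of early blood and T cell development from C57BL/6J mice, with no genetic change or treatment named for any of them. Those of bone marrow, with 2 arrays each, were HSC, or hematopoietic stem cells, LMPP, or lymphoid-primed multipotent progenitors, and CLP, or common lymphoid progenitors. Those of thymus were ETP, or early thymic precursors, with 2 arrays, DN2, the double negative 2 stage, with 1 array, and DN3, the double negative 3 stage, with 2 arrays. Tissue label and design text place these last populations in the thymus, although their sample descriptions name bone marrow. No source used here gives ages, sort gates, pooling or the origin of the replicates, so p-values may measure only technical spread.

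MHC class II molecules are pairs of an alpha and a beta chain that carry peptides from engulfed proteins to the surface, where CD4 T cells read them. H2-Aa and H2-Ab1 are the alpha and beta chain of the A molecule, and H2-Eb1 is the beta chain of the E molecule, whose alpha chain gene is defective in C57BL/6 mice. Cd74 holds new class II molecules and guides them to the endosome, Ctss (cathepsin S) cuts Cd74 there so that peptide can bind, and Ciita switches the chain genes and Cd74 on through factors bound at their promoters. Dendritic cells, B cells, macrophages and thymic epithelium are the usual class II-bearing cells of these tissues.

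Class II promoters are known for a shared upstream module, in which an X box bound by RFX and CREB proteins lies ahead of a Y box bound by NF-Y. The 150 bases before the annotated start are shown for the 3 members listed in the RefSeq promoter table (GRCm38.p6), because 2 of them changed together in ETP and the third followed another pattern. In capitals are letters of these motifs, searched on both strands after the sequences had been seen: GCAAC, the first part of the X box; TGACGTCA, the CREB site; CTGATTGG, the Y box with its core ATTGG inside; CCAAT, which is ATTGG on the opposite strand; and, in Ctss, a repeat of GAAA with any 2 bases between its copies, which interferon regulatory factors bind. H2-Aa lies on the minus strand at chr17:34287824-34287973, H2-Eb1 on the plus strand at chr17:34305717-34305866 and Ctss on the plus strand at chr3:95526636-95526785. H2-Ab1, Cd74 and Ciita are named only.
H2-Aa: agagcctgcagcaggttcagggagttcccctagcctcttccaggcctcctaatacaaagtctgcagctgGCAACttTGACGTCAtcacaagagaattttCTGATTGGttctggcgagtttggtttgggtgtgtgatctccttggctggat
H2-Eb1: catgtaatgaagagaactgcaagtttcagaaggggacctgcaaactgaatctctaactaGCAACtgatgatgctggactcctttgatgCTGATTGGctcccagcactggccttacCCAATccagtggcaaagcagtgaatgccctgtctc
Ctss: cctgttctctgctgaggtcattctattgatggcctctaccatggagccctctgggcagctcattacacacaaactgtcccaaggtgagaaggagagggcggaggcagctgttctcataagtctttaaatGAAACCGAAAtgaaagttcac
Counted from the start, H2-Aa held GCAAC at -81 to -77, TGACGTCA at -74 to -67 and CTGATTGG at -51 to -44. H2-Eb1 held GCAAC at -91 to -87 and CTGATTGG at -62 to -55, with CCAAT at -35 to -31. The Ctss window held the GAAA repeat at -21 to -12. Among 32851 windows of this length, GCAAC occurred in 19.6%, ATTGG in 24.5%, CTGATTGG in 3.16%, TGACGTCA in 1.36% and the GAAA repeat in 1.59%. GCAAC followed by ATTGG on the strand of the gene, with starts 20 to 45 bases apart, occurred in 0.368% of windows. These matches describe letters in a window and show no binding.

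Values below are log2 intensities made by the authors with RMA, a method that corrects background, equalises the distributions of the arrays and summarises the probes of each probe set, so 1 unit is a doubling of signal. Array medians ran between 6.01 and 6.12, and a level is never compared between genes, since probe sets differ in brightness. Differences come from a single limma fit over all 11 arrays, adjusted by Benjamini-Hochberg over 19938 genes, with adjusted p under 0.05 as the threshold for a call. The labels were checked against measured markers. Slamf1, an HSC surface marker, had a log2 intensity of 7.67 and 7.42 in HSC and 4.01 and 4.41 in LMPP. Of 5 measured HSC markers, limma called 2 lower in LMPP than in HSC, Slamf1 and Meis1. There 586 of 19938 genes were called in either direction. Mecom averaged 7.06 in HSC and 7.02 in LMPP, and Hlf 8.62 in HSC and 8.95 in LMPP, so neither set HSC apart from LMPP. Ebf1, a B lineage factor of CLP, read 9.32 and 9.22 in CLP and 5.43 and 4.74 in LMPP. Flt3, an LMPP marker, read 10.48 and 10.75 in LMPP and 10.50 and 10.66 in CLP, so it did not set these 2 apart. Hes1, a Notch target, read 8.19 and 8.27 in ETP and 6.72 at most in the marrow arrays. It was about as high in DN2 (8.24) and DN3 (8.44 and 8.36), so it separates ETP from marrow alone. Il2ra, which marks DN2 and DN3, read 11.40 in DN2 and 11.30 and 11.23 in DN3, and Cd3e, a T cell receptor subunit, read 9.64 and 9.59 in DN3. In ETP, Il2ra read 6.96 and 7.68, against 4.49 at most in the marrow arrays. Limma called it higher in ETP than in HSC, LMPP and CLP. The cause of this ETP reading was not tested.

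H2-Aa, H2-Ab1, H2-Eb1 and Cd74 were each higher in ETP than in every other population, while Ctss was high across LMPP, CLP and ETP and Ciita passed no test. In the limma F test over the 6 populations, 5 of the 6 genes were called, where 12.2% of all genes were. Against LMPP, ETP carried 4 called genes, all higher, where 1.44% of all genes were called higher. Against CLP the same number were called higher in ETP, where 1.41% of all genes were. ETP exceeded HSC in 5 genes, against a background of 2.57%, and 5 were lower in DN2 than in ETP (0.677% of all genes) and in DN3 than in ETP (3.89%). Because the 6 genes were chosen with earlier results of these data known, these counts and the shares beside them are descriptions. In sorted pools, more cells with a transcript and more transcript per cell cannot be told apart.

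H2-Aa, the alpha chain of the A molecule, differed most in size among the chain genes. Its log2 intensity was 6.16 and 6.02 in HSC, 6.03 and 6.25 in LMPP, 5.55 and 6.16 in CLP, 9.14 and 9.59 in ETP, 6.02 in DN2, and 5.01 and 5.75 in DN3. Both ETP arrays lay far above all others, and HSC, LMPP and CLP overlapped. The DN3 arrays lay below every HSC, LMPP and DN2 array and overlapped CLP alone. ETP averaged 9.37 ± 0.32 and CLP 5.86 ± 0.43 (SD, n = 2 each), a difference of 3.51 or 11.4-fold (SE 0.26, 95% interval 2.94 to 4.09, limma adjusted p = 3.77e-05). The rise over LMPP was 9.38-fold (limma adjusted p = 0.000101) and over HSC 9.68-fold (3.53e-05). DN2 lay 3.35 log2 units below ETP, 10.2-fold lower (limma adjusted p = 0.000708), and DN3 lay 15.9-fold below ETP (4.15e-06). With 1 array, DN2 was assumed in all its tests to vary like the other populations. The gap of 2.89 between the lower ETP array and the highest other array ranked 1 of 19938 genes, given as a description chosen after its values were seen.

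H2-Ab1, the beta chain that pairs with H2-Aa, was also highest in ETP, by a smaller difference. It read 7.09 and 6.96 in HSC, 7.47 and 7.40 in LMPP, 7.24 and 7.84 in CLP, 8.69 and 8.59 in ETP, 7.15 in DN2, and 7.06 and 7.03 in DN3. The ETP arrays stood above all others, with 1 CLP array closest. ETP exceeded CLP by 1.10 log2 units or 2.15-fold (SE 0.17, limma adjusted p = 0.00613), a call that was lost without ETP replicate 1 (difference 1.05, adjusted p = 0.064). It exceeded LMPP 2.31-fold (limma adjusted p = 0.00395) and HSC 3.07-fold (0.000262). The gene was 2.81-fold lower in DN2 than in ETP (limma adjusted p = 0.00692) and 3.02-fold lower in DN3 than in ETP (0.000174).

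H2-Eb1, the beta chain of the E molecule, showed the tightest ETP pair, at 7.35 and 7.36. The other arrays read 5.96 and 6.21 in HSC, 6.47 and 6.13 in LMPP, 6.28 and 6.26 in CLP, 6.18 in DN2, and 6.08 and 6.04 in DN3. The highest other array, of LMPP, read 6.47, so ETP stood apart from the rest. ETP was 2.12-fold above CLP (difference 1.08, SE 0.14, limma adjusted p = 0.00161), 2.08-fold above LMPP (0.00241) and 2.42-fold above HSC (0.000295). DN2 was 2.27-fold below ETP (limma adjusted p = 0.00734; 0.0565 without ETP replicate 2), and DN3 was 2.45-fold below ETP (0.000162).

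Cd74, the invariant chain, whose gene lies on another chromosome than the chains, was highest in ETP as well. It read 5.05 and 5.37 in HSC, 5.55 and 5.48 in LMPP, 5.15 and 5.46 in CLP, 6.63 and 6.72 in ETP, 5.26 in DN2, and 4.98 and 5.11 in DN3. The highest array outside ETP, of LMPP, read 5.55. The excess of ETP was 2.59-fold over CLP (difference 1.37, SE 0.15, limma adjusted p = 0.000527), 2.23-fold over LMPP (0.00212) and 2.76-fold over HSC (0.00019). DN2 was 2.67-fold lower than ETP (limma adjusted p = 0.00382) and DN3 3.10-fold lower than ETP (5.15e-05).

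**Figure D1:**
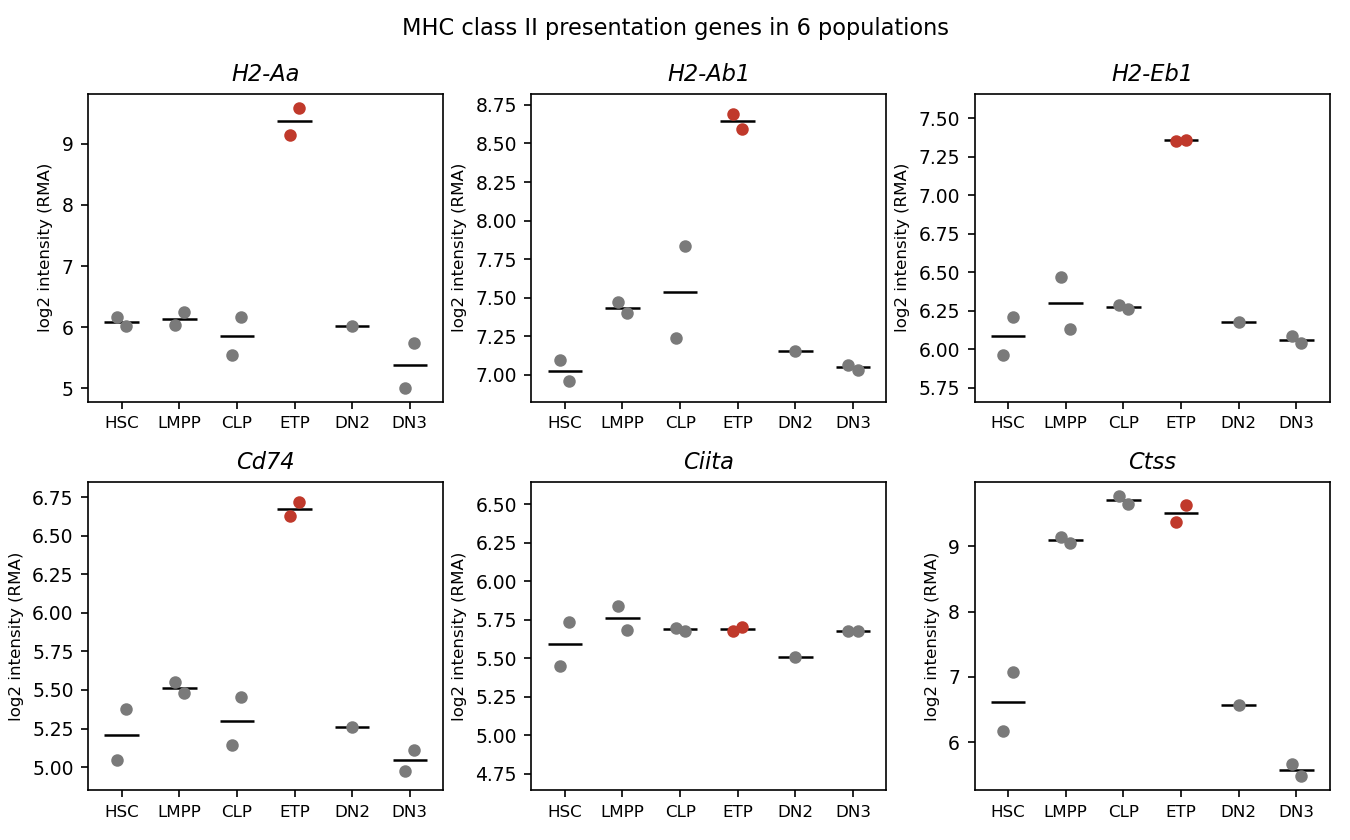
Log2 intensity of the 6 genes (one panel each, vertical axis) in HSC, LMPP, CLP, ETP, DN2 and DN3 (horizontal axis); each point is 1 array, with ETP in red. The 2 ETP points stand above all 9 other arrays for H2-Aa, H2-Ab1, H2-Eb1 and Cd74, whereas Ctss is high in LMPP, CLP and ETP and Ciita stays between 5.45 and 5.84.

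Among the populations other than ETP, the 3 chains and Cd74 could not be ordered. None of their 40 pairwise tests without ETP was called by limma, although 7 of the 40 had an unadjusted p under 0.05. Among all genes, 1.14% were called in either direction in CLP minus LMPP, 1.8% in DN3 minus DN2, and 5.43% lower in DN3 minus HSC. With shares of this size, the absence of calls is a description only. The lowest adjusted p among them was 0.103 for H2-Aa, 0.120 for H2-Ab1, 0.361 for H2-Eb1 and 0.0756 for Cd74. By mean level the next population below ETP was LMPP for H2-Aa, H2-Eb1 and Cd74 and CLP for H2-Ab1. The lowest was DN3 for H2-Aa, H2-Eb1 and Cd74 and HSC for H2-Ab1. Over neighbours in the order of levels of all 6 genes, 5 of 30 pairs differed: ETP from the next population for these 4 genes, and LMPP from HSC for Ctss. The shares of all genes called higher were 1.44% in ETP minus LMPP, 1.41% in ETP minus CLP and 1.23% in LMPP minus HSC.

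Ciita, the transactivator without which most cells make no class II, read 5.45 and 5.73 in HSC, 5.84 and 5.68 in LMPP, 5.70 and 5.68 in CLP, 5.68 and 5.70 in ETP, 5.51 in DN2, and 5.68 and 5.67 in DN3. The HSC pair spanned every array but 1 of LMPP, so the populations overlapped. None of its 15 pairs was called by limma, and the lowest adjusted p was 0.557. The 95% interval of the log2 difference was -0.28 to 0.28 for ETP minus CLP, -0.35 to 0.21 for ETP minus LMPP, and -0.29 to 0.26 for DN3 minus ETP. Its population means spanned 0.25 log2 units, and 30.4% of all genes had a span no wider. Its probe set gives no absence call, so whether these readings lie above background is unknown.

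Ctss, the protease that trims the invariant chain, was high in 3 consecutive populations. It read 6.17 and 7.07 in HSC, 9.14 and 9.06 in LMPP, 9.77 and 9.65 in CLP, 9.37 and 9.64 in ETP, 6.57 in DN2, and 5.67 and 5.48 in DN3. Every LMPP, CLP and ETP array lay above 9 and every other array at 7.07 or below. LMPP exceeded HSC 5.57-fold (difference 2.48, limma adjusted p = 0.000292; 1.23% of all genes were called higher there), and CLP exceeded HSC 8.50-fold (2.24e-05; 2.68%). ETP exceeded HSC 7.39-fold (limma adjusted p = 4.36e-05). DN2 lay 7.65-fold below ETP (limma adjusted p = 0.000805), 8.80-fold below CLP (0.000166; 1.44% of all genes were called lower) and 5.77-fold below LMPP (0.000715; 1.38%). DN3 lay 15.3-fold below ETP (limma adjusted p = 2.32e-06), 17.6-fold below CLP (1.34e-06; 4.18% of all genes were called lower), 11.5-fold below LMPP (4.24e-06; 4.55%) and 2.07-fold below HSC (0.0168; 5.43%). The difference from HSC, -1.05, was not called without HSC replicate 2 (-0.60, limma adjusted p = 0.0507), DN3 replicate 1 (-1.14, 0.0649) or DN3 replicate 2 (-0.96, 0.143).

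Between the 3 high populations Ctss was not called. ETP minus LMPP was 0.41 (95% interval -0.12 to 0.93) and ETP minus CLP was -0.20 (95% interval -0.73 to 0.32). CLP minus LMPP was 0.61 (95% interval 0.086 to 1.13, limma adjusted p = 0.458). In that comparison limma called none of the 6 genes and 1 had an unadjusted p under 0.05, where 1.14% of all genes were called. DN3 minus DN2 was -0.999 for Ctss (95% interval -1.64 to -0.36, limma adjusted p = 0.183), and there too limma called none of the 6 and 1 had an unadjusted p under 0.05, where 1.8% of all genes were called. That Ctss difference was called without either HSC array (adjusted p = 0.0126 in both cases).

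**Figure D2:**
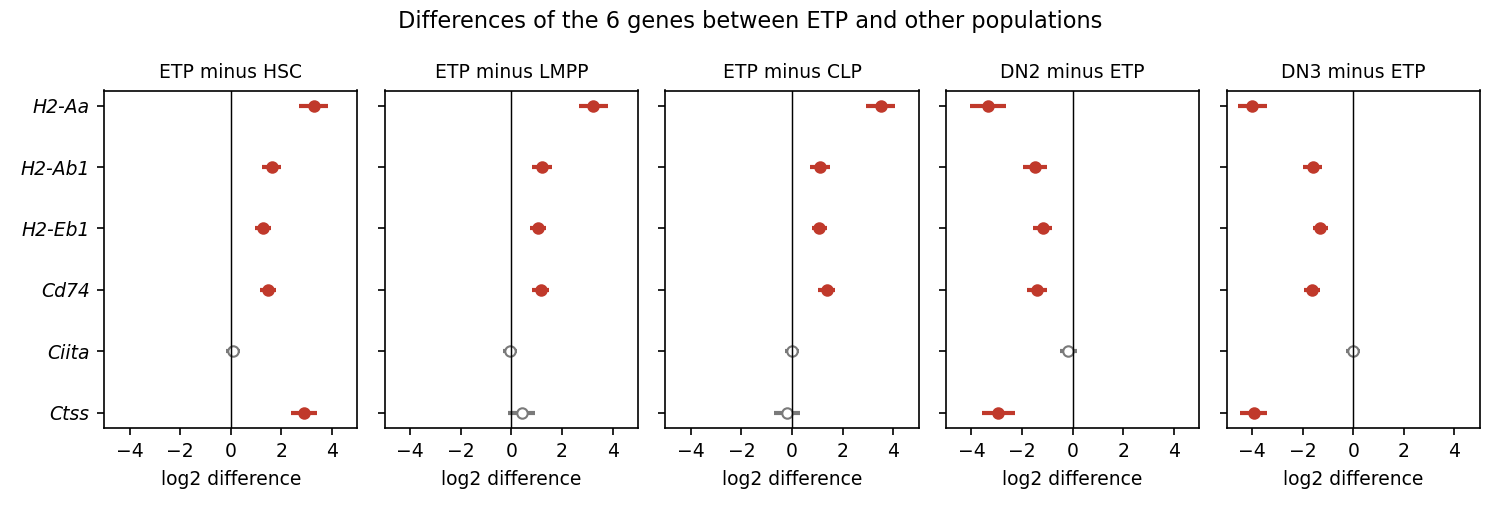
Log2 differences of the 6 genes (rows) in 5 comparisons that contain ETP (panels), from the limma fit; points are differences of means, bars 95% intervals, red filled points adjusted p under 0.05 and grey open points not called. H2-Aa lies beyond 3 log2 units from 0 in every panel, H2-Ab1, H2-Eb1 and Cd74 between 1.06 and 1.63, and Ciita crosses 0 in all 5.

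The pattern of the 4 ETP genes was uncommon in the whole table. ETP was called higher than each of the 5 other populations for 33 genes, which is 0.166% of 19938, and 4 of the 6 genes were among them. LMPP, CLP and ETP were each called higher than each of HSC, DN2 and DN3 for 16 genes (0.0802%), with Ctss the single member. Without a test, both ETP arrays lay above all 9 others for 503 genes (2.52%), 4 of the 6 among them. These patterns were written down after the values had been seen, so these counts are descriptions. Over the 11 arrays, Pearson's r between the 3 chains and Cd74 ran from 0.921 to 0.974, for example 0.973 for H2-Aa with Cd74. Ctss reached 0.500 with H2-Aa and 0.677 with H2-Ab1, and Ciita 0.478 at most with any member. All genes share the arrays, including the 2 high ETP arrays, and the correlations carry no test.

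Among the 1629 other genes whose population means spanned at least 1 log2 unit, Has2, a hyaluronan synthase, was most like H2-Aa (r = 0.967 over 11 arrays), followed by Cdh17, Mrgpra1, Nostrin and Mcpt2, from 0.954 to 0.951. H2-Ab1 was most like Dse (0.974), Slamf7, Gjb2, Plbd1 and Dglucy (0.905). H2-Eb1 was most like Gjb2, a gap junction protein (0.969), Plbd1, Nostrin, Mrgpra1 and Has2 (0.945). Cd74 was most like Cdh17 (0.957), Has2, Gjb2, Mrgpra1 and Dse (0.939). Ctss was most like Il18rap, a subunit of the interleukin 18 receptor (0.979), followed by H2-Ob, the beta chain of the loading modulator DO (0.969), Il1r2 (0.967), Crem (0.958) and Il18r1 (0.956). For Ciita the likeness was lower, from 0.718 for BC031361 to 0.673 for Tspan6, with Tmem243, Btla and Ap1s2 between them.

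Beyond the 6 genes, 33 other listed genes of the class II pathway were measured, and most did not pass the tests against ETP. Higher in ETP than in LMPP was 1 of 33, with none lower, where 1.44% of all genes were called higher and 0.868% lower (limma; at unadjusted p under 0.05, 4 of the 33 were higher and 1 lower). Against CLP, 2 of 33 were higher in ETP and 2 lower, where 1.41% of all genes were called higher and 1.1% lower (limma; at unadjusted p under 0.05, 6 were higher and 6 lower). Leaving out 1 array gave 0 to 3 higher and 2 to 3 lower. In DN3, 8 of 33 were lower than in ETP and none higher, where 3.89% of all genes were called lower and 2.68% higher (limma; at unadjusted p under 0.05, 11 lower and 2 higher); leaving out 1 array gave 5 to 8 lower. The median log2 difference of the 33 was 0.0079 for ETP minus LMPP, against -0.0285 over all genes, 0.131 for ETP minus CLP against -0.0082, and -0.104 for DN3 minus ETP against -0.0029. In DN2, with 1 array, 4 of 33 were lower than in ETP and none higher, where 0.677% of all genes were called lower (limma). They were H2-Oa, H2-Ob, Ctsh and Cd86, and at unadjusted p under 0.05, 9 were lower and 1 higher. ETP exceeded HSC in 4 of 33, Irf1, H2-Ob, Ctsh and Cd86, with none lower (limma). There 2.57% of all genes were called higher, and at unadjusted p under 0.05, 6 of the 33 were higher and 2 lower. H2-DMb1 and H2-DMb2 were not analysed here.

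Regulators of the class II genes formed the first group. Limma called none of the 11 measured regulators between ETP and LMPP, where 1.44% of all genes were called higher and 0.868% lower. At unadjusted p under 0.05, 1 of the 11 was higher and 1 lower. Rfx5, the DNA-binding subunit of RFX, read 6.15 and 6.08 in ETP and 6.22 and 6.00 in LMPP. Irf8, a factor of dendritic cell and B cell development, read 6.30 and 5.87 in ETP and 7.93 and 9.12 in CLP, 5.43-fold lower in ETP (limma adjusted p = 0.00183). Irf1, an interferon-responsive activator of Ciita, read 7.77 and 7.89 in ETP and 7.12 and 6.81 in HSC, 1.81-fold higher in ETP (limma adjusted p = 0.00276). Spi1, the myeloid and lymphoid factor PU.1, read 5.83 in both DN3 arrays and 7.40 and 7.80 in ETP, 3.42-fold lower in DN3 (limma adjusted p = 0.00018).

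Of the peptide-loading and further chain genes, H2-Ob and H2-Oa form DO, which restrains peptide exchange. H2-Ob read 7.21 and 7.19 in HSC, 9.15 and 9.11 in LMPP, 10.07 and 9.87 in CLP, 9.05 and 8.92 in ETP, 7.28 in DN2, and 5.77 and 6.10 in DN3. It was thus high in the same 3 populations as Ctss, with CLP highest. ETP was 3.45-fold above HSC (limma adjusted p = 2.82e-05) and 1.98-fold below CLP (0.00261), and DN3 8.28-fold below ETP (2.94e-07). H2-DMa, the alpha chain of the peptide exchange factor DM, was 2.56-fold lower in DN3 than in ETP (limma adjusted p = 0.0193), a call lost without any one of those 4 arrays. H2-Oa, the partner of H2-Ob, was also lower in DN3 than in ETP (difference -0.78, limma adjusted p = 0.00634), and lost its call without ETP replicate 2 or either DN3 array. H2-Ea, the alpha chain gene that is defective in this strain, read between 4.22 and 4.78 on all arrays.

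Of 10 lysosomal processing genes, Ctsh, a cathepsin, was higher in ETP than in LMPP by 2.30-fold (limma adjusted p = 0.00994), a call lost without LMPP replicate 2 or ETP replicate 2. It read 6.20 and 6.89 in ETP and 5.43 and 5.27 in LMPP, and was 3.51-fold lower in DN3 than in ETP (limma adjusted p = 0.000207). Ifi30, the thiol reductase of the endosome, was 1.87-fold higher in ETP than in CLP (limma adjusted p = 0.0232; lost without CLP replicate 1 or ETP replicate 2). Cd86, a costimulatory ligand, read 4.91 and 4.62 in DN3 and 6.45 and 7.16 in ETP, 4.11-fold lower in DN3 (limma adjusted p = 0.000151). The surface protein Cd9 was 2.23-fold lower in DN3 than in ETP (limma adjusted p = 0.00172).

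Genes of the class I pathway, which presents peptides made inside the cell, were read for comparison. Limma called none of the 11 measured genes in ETP minus LMPP, ETP minus CLP or DN3 minus ETP (2, 1 and 0 at unadjusted p under 0.05). The shares of all genes called higher and lower were 1.44% and 0.868%, 1.41% and 1.1%, and 2.68% and 3.89%. With shares this small, the absence of calls among 11 genes is a description only. Erap1 was 1.49-fold higher in ETP than in HSC (limma adjusted p = 0.0449, lost without either ETP array), where 2.57% of all genes were called higher. B2m, the light chain of all class I molecules, read between 12.19 and 12.55 on the 11 arrays. The difference between class I and class II genes was not tested as such.

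**Figure D3:**
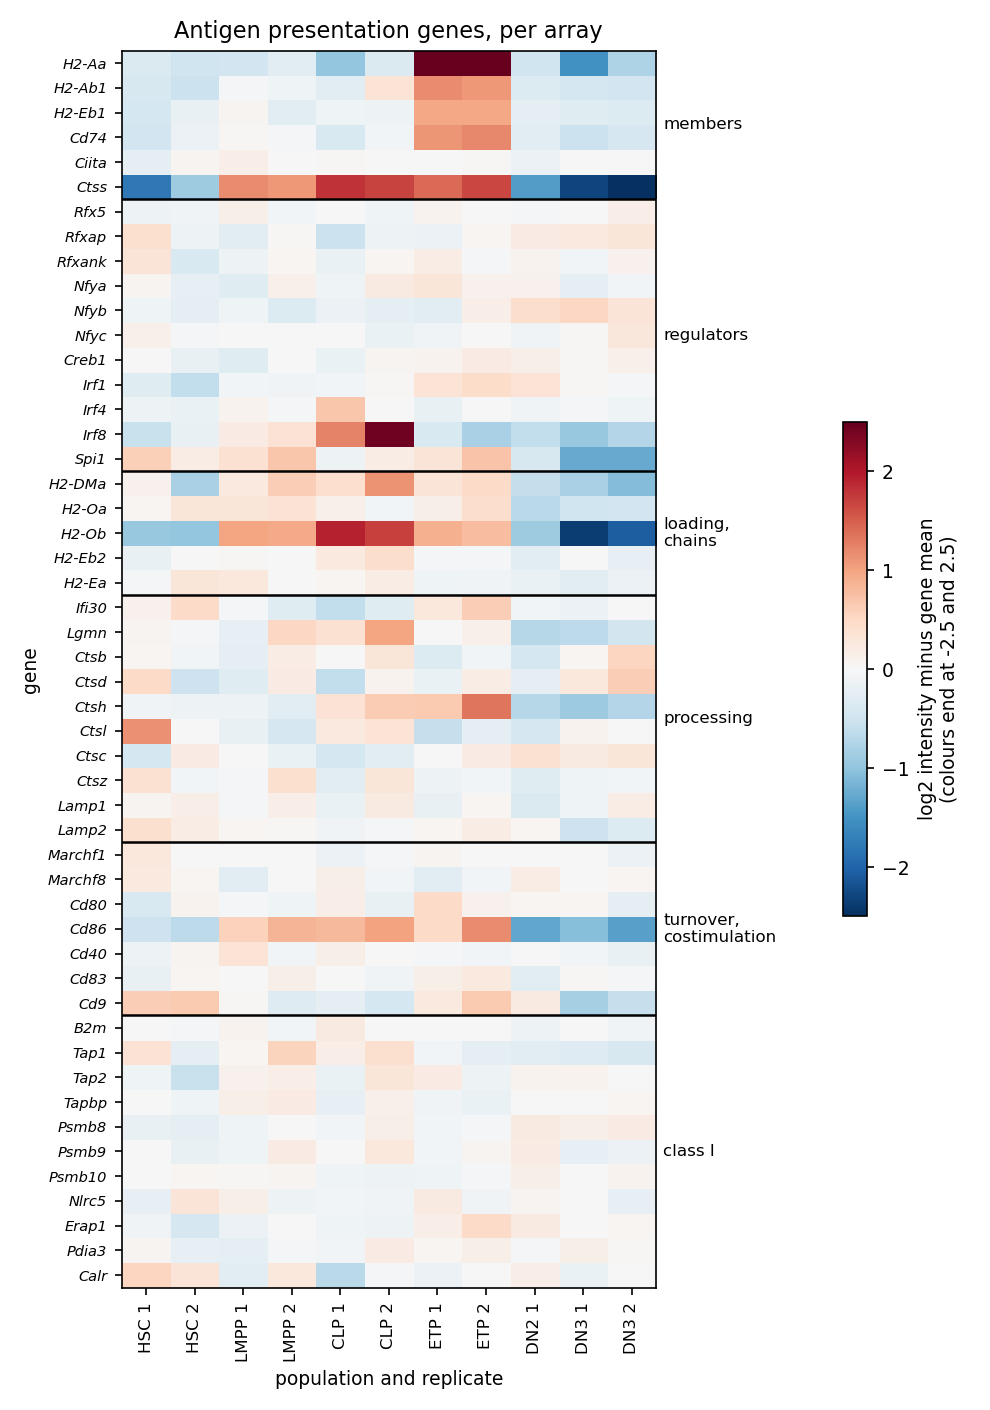
Log2 intensity minus the mean of the gene over the 11 arrays, for the 6 genes, the 33 other class II pathway genes and 11 class I genes (rows, grouped) on each array (columns); red is above and blue below the mean, with colours ending at -2.5 and 2.5. The ETP columns are red for H2-Aa, H2-Ab1, H2-Eb1 and Cd74, Ctss and H2-Ob are red from LMPP to ETP, and the class I rows vary little.

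The 3 chains stand side by side on chromosome 17, so their neighbours were read in the same fits. Of 19 protein-coding genes from H2-DMa to Gpsm3, 15 were measured, ordered by the RefSeq table. In ETP minus LMPP, the called genes among these 15 were the 3 chains. In ETP minus CLP, H2-Ob joined them in the opposite direction. In DN3 minus ETP, H2-Ob (-3.05, limma adjusted p = 2.94e-07) and H2-DMa (-1.36, 0.0193) were called lower together with the 3 chains. Of all genes, 1.44% were called higher in ETP than in LMPP, and 3.89% lower in DN3 than in ETP. In ETP minus CLP, 1.41% were called higher and 1.1% lower. H2-Eb2, a class II beta-like gene next to H2-Eb1, differed by -0.05 between ETP and LMPP (limma adjusted p = 0.925), and the class I genes Tap1 and Psmb9 nearby by -0.45 (0.395) and -0.04 (0.946).

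**Figure D4:**
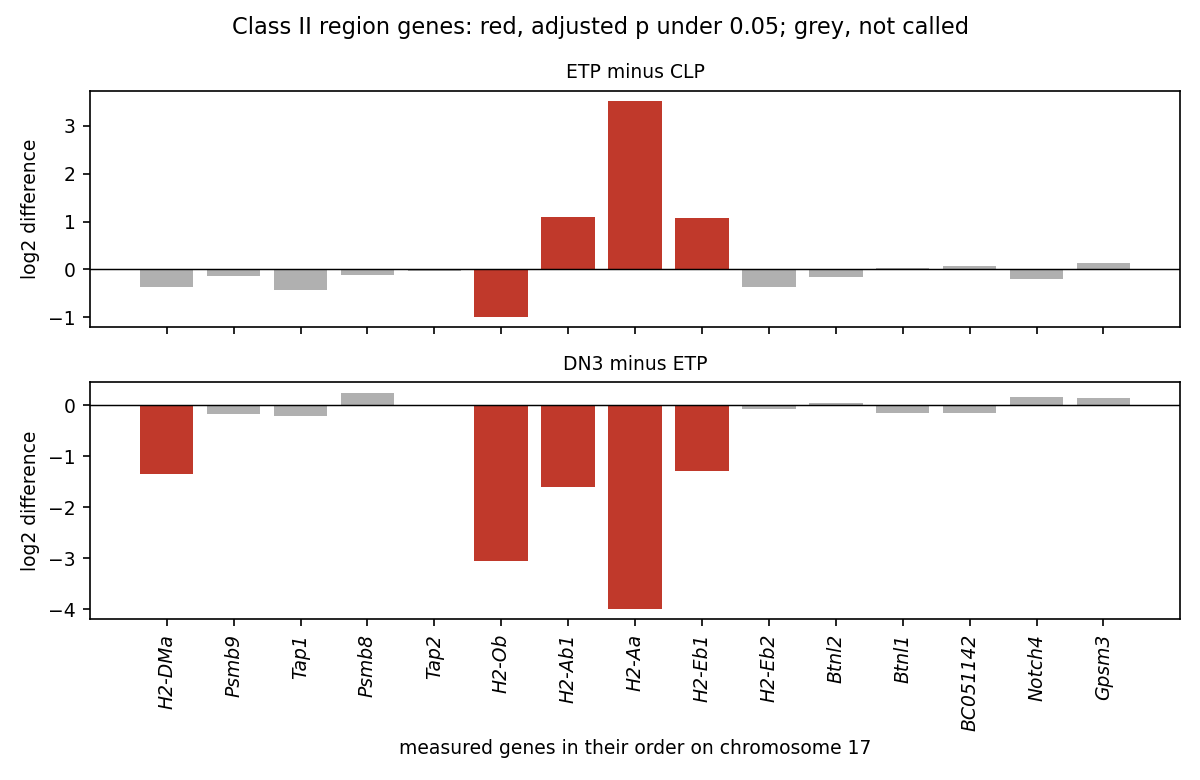
Log2 difference (bars, from 0) of 15 measured genes in their order on chromosome 17, for ETP minus CLP above and DN3 minus ETP below; red bars have adjusted p under 0.05 and grey bars were not called. H2-Ab1, H2-Aa and H2-Eb1 rise together in the upper panel, whereas H2-Ob is below 0 in both.

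Since class II is usual in other cells of thymus and marrow, their markers were read in the same fits; the markers were listed with earlier results of these data known. Of 18 dendritic cell markers, 2 were higher in ETP than in LMPP, where 1.44% of all genes were: Ccl17, a chemokine (2.32-fold, limma adjusted p = 0.00226), and Ccl22, its relative (1.64-fold, 0.0104; lost without LMPP replicate 2 or either ETP array). Both were also higher in ETP than in CLP (1.41% of all genes), for Ccl22 a call lost without any one of the CLP, ETP or DN3 arrays. Siglech, a receptor of plasmacytoid dendritic cells, was 5.72-fold lower in ETP than in CLP (limma adjusted p = 3.33e-05), where 1.1% of all genes were called lower.

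In DN3, 4 of the 18 were lower than in ETP (3.89% of all genes): Sirpa (2.89-fold, limma adjusted p = 0.000299), Wdfy4 (2.32-fold), Ccl17 (2.21-fold) and Ccl22 (1.86-fold). Itgae was higher there (2.68% of all genes), a call lost without any one of 8 arrays. In DN2, Ccl17 and Ccl22 were lower than in ETP (0.677% of all genes), and leaving out 1 array gave 0 to 2 calls. Of the defining markers Itgax, Zbtb46 and Xcr1, limma called none between ETP and LMPP (adjusted p from 0.773 to 0.988), and Itgax, Ccl17 and Ccl22 were higher in ETP than in HSC (2.57% of all genes), Itgax by 1.66-fold (limma adjusted p = 0.0117; lost without HSC replicate 1 or either ETP array). Itgax read 5.99 and 5.95 in ETP and 5.83 and 5.85 in LMPP, Zbtb46 5.49 and 5.53 in ETP and 5.70 and 5.51 in LMPP, and Xcr1 4.40 and 4.42 in ETP and 4.42 and 4.43 in LMPP. The mean over the 18 was 6.01 and 5.98 in ETP, within the span of LMPP and CLP together (5.94 to 6.14).

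In ETP minus LMPP, 1.44% of all genes were called higher and 0.868% lower. Limma called none of 14 B cell markers there (0 at unadjusted p under 0.05). Lower in ETP than in CLP were 3 of them, Cd79b (1.59-fold, limma adjusted p = 0.00909), Pax5 (1.70-fold) and Bank1 (1.99-fold), where 1.1% of all genes were lower, and leaving out 1 array gave 0 to 5. Cd72 was 6.76-fold lower in DN3 than in ETP (limma adjusted p = 7.52e-06), and Spib 1.71-fold higher (0.036; lost without any one of 6 arrays). In DN3 minus ETP, 3.89% of all genes were called lower and 2.68% higher. Among the defining markers, Cd79a read 4.50 and 4.22 in ETP and 6.32 and 4.92 in CLP without a call (limma adjusted p = 0.141), Cd79b 7.74 and 7.81 in ETP and 8.41 and 8.49 in CLP, and Ms4a1 4.01 and 4.07 in ETP and 4.30 and 3.99 in CLP.

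ETP minus LMPP had 1.44% of all genes called higher and 0.868% lower. Of 15 macrophage and monocyte markers limma called none there (2 higher and 1 lower at unadjusted p under 0.05). In ETP minus CLP, Ccr2, a monocyte chemokine receptor, was higher by 2.41-fold (limma adjusted p = 0.00561) and Cx3cr1, another, lower by 2.07-fold (0.0108; lost without CLP replicate 2 or ETP replicate 2). Ccr2 (2.74-fold), Lyz2 (2.69-fold) and Csf1r (2.08-fold, limma adjusted p = 0.000266) were lower in DN3 than in ETP, and Ccr2 and Csf1r also in DN2 (limma adjusted p = 0.0365 and 0.0171), where the call of Csf1r was lost without either ETP array and that of Ccr2 without any one of 9 arrays. Of all genes, 3.89% were called lower in DN3 than in ETP and 0.677% lower in DN2 than in ETP. In ETP minus CLP, 1.41% were called higher and 1.1% lower. Csf1r read 6.38 and 6.50 in ETP, above 5.29 to 6.05 on all other arrays. Lyz2 was not highest in ETP: it averaged 8.24 there, 8.98 in HSC and 8.68 in LMPP. Adgre1 read 4.38 and 4.17 in ETP and 4.55 and 4.44 in LMPP, and Cd68 averaged 6.95 ± 0.50 in ETP and 7.11 ± 0.12 in LMPP (SD, n = 2 each).

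Of 12 thymic epithelial markers Ccl25 was higher in ETP than in LMPP (1.60-fold, limma adjusted p = 0.0479), a call lost without any one of the LMPP, CLP, ETP or DN3 arrays. Of all genes, 1.44% were called higher in ETP than in LMPP and 2.68% higher in DN3 than in ETP. Limma called none of the 12 in ETP minus CLP (2 at unadjusted p under 0.05). There 1.41% of all genes were called higher and 1.1% lower. Epcam was 4.67-fold higher in DN3 than in ETP (limma adjusted p = 3.62e-07), and Ly75 1.49-fold higher (0.0152; lost without any one ETP or DN3 array). Epcam read 4.99 in both ETP arrays, its lowest readings, Krt5 read 5.11 and 5.24 in ETP and 5.16 and 5.17 in LMPP, and Krt8 read 6.84 and 6.69 in ETP and 6.82 and 6.85 in LMPP.

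Of 10 measured markers of innate lymphoid and natural killer cells, 3 were higher in ETP than in LMPP, where 1.44% of all genes were: Klrd1 (3.08-fold, limma adjusted p = 0.00604; lost without LMPP replicate 2 or ETP replicate 2), Nkg7 (4.07-fold, 0.00017) and Id2 (3.49-fold, 0.000497). Nkg7 (2.69-fold) and Id2 (1.86-fold; lost without any one of 5 arrays) were also higher in ETP than in CLP. Klrd1 averaged 8.43 in CLP and 7.54 in ETP, a difference without a call (limma adjusted p = 0.112). Nkg7 averaged 10.43 in ETP and 9.91 in HSC and read 10.24 in DN2, so its high level was not particular to ETP. Klrd1, Nkg7 and Id2 were all lower in DN3 than in ETP, by 9.33-fold, 2.88-fold and 1.93-fold. Leaving out 1 array gave 2 to 3 of these calls. Klrd1 (7.35-fold) and Id2 (2.40-fold) were lower in DN2 than in ETP, where 0.677% of all genes were called lower. Of all genes, 3.89% were called lower in DN3 than in ETP and 1.41% higher in ETP than in CLP. Il23r, a defining marker, read 4.22 and 4.08 in ETP and 4.31 and 4.27 in LMPP. The mean over the 10 was 5.95 and 6.05 in ETP, 5.49 and 5.40 in LMPP and 6.03 and 5.90 in CLP.

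Between ETP and LMPP, 1.44% of all genes were called higher in ETP and 0.868% lower. Limma called none of 12 mature T cell markers in that comparison (1 at unadjusted p under 0.05). Cd28 and Ctla4, receptors that tune T cell activation, were lower in ETP than in CLP (3.45-fold and 2.14-fold), and leaving out 1 array gave 0 to 2 of these calls. In DN3, Cd28 (8.93-fold), Ctla4 (8.64-fold) and Cd8b1 (1.91-fold) were higher than in ETP and Icos 1.91-fold lower. There 2.68% of all genes were called higher and 3.89% lower, and 1.1% were called lower in ETP than in CLP. Cd4 read 5.55 and 5.66 in ETP and 6.16 and 5.68 in LMPP, Cd5 6.77 and 6.42 in ETP and 6.13 and 6.27 in LMPP, and Cd6 6.45 and 6.47 in ETP and 6.25 and 6.15 in LMPP. The part of any of these cell types in the class II signal of ETP was not tested.

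**Figure D5:**
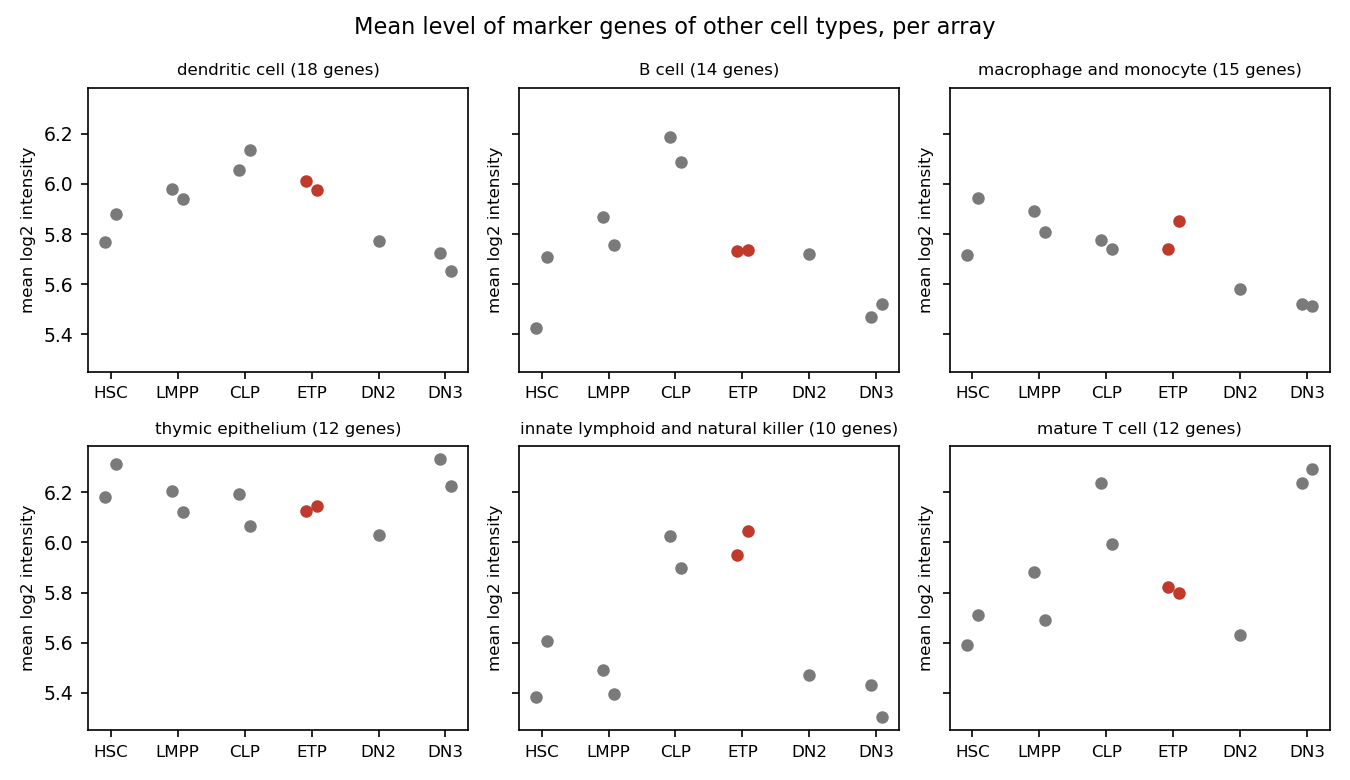
Mean log2 intensity of markers of 6 other cell types (one panel each, vertical axis) in the 6 populations (horizontal axis); each point is 1 array, with ETP in red. The ETP points lie within the span of the other arrays in the panels for dendritic, B, macrophage, thymic epithelial and mature T cells.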

How the data were processed

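Total RNA from sorted cells was extracted with Trizol, biotin-labelled with the WT kit of Affymetrix and put on 1 array per sample, per the labels. The authors deposited log2 intensities made by RMA, per the submitters' processing notes. No source used here gives its version, chip definition or genome build. That the scale is log2 follows from the range of values, between 2.07 and 13.77. Signals of arrays have no count depth, so the number of arrays limits precision.

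Of 35556 probe sets, 21789 had 1 gene symbol in the platform annotation, 1621 several and 12146 none. Symbols were updated by Entrez ID, found for 21698 in the RefSeq table (GRCm38.p6), and of several probe sets of a gene the one with the highest mean was kept, leaving 19938 genes with no filter on dim genes. Each member had 1 probe set, so this choice did not touch the members.

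The log2 values were fitted with limma 3.58.1 in R 4.3.3 as 6 population means over 11 arrays (5 residual degrees of freedom), with 15 two-sided pairwise contrasts and an F test, each adjusted by Benjamini-Hochberg over all genes. DN2, with 1 array, was assumed to vary like the others. The fit was tested on simulated data. Alternatives were another scaling, probe set means, a dim-gene filter, array weights, an intensity trend, 2-population fits, the replicate number as a block and leaving out each array. Named were the 6 members, up to 4 called genes per list in the comparisons of ETP with LMPP, ETP with CLP and DN3 with ETP, each cell type's first 3 markers where measured, and 5 like genes per member; a few further genes were named after their values were seen. The members and gene lists were chosen with earlier results of these data known. Tables and figures used Python 3.11.15, pandas 2.3.3 and matplotlib 3.10.9.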

Additional observations from a re-analysis of the deposited data

How the results depend on the processing

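Of 30 called differences of the 6 genes, none turned direction under the alternatives run, and 713 of 729 values, those of 10 differences without a call included, kept both direction and side of the threshold. Part of these values could not change in size or direction, so the tally overstates how far they were tried. Each member had 1 probe set, so probe set means left its differences as they were. Leaving out an array of a population outside a comparison also left the difference the same. H2-Ab1 in ETP minus CLP lost its call without ETP replicate 1 (1.05, adjusted p = 0.064) and in a fit of those populations alone (1.10, 0.101), and H2-Eb1 in DN2 minus ETP without ETP replicate 2 (-1.18, 0.0565). Ctss in DN3 minus HSC lost it without HSC replicate 2 or either DN3 array (-1.50 to -0.60 over the leave-one-out fits). The alternatives for this and the other 4 Ctss calls outside the 9 planned comparisons were added after the data were seen, without fits of those populations alone. Ctss in DN3 minus DN2 gained one with array weights (-0.999, 0.0469) or without either HSC array, which made the count of members there 1 with array weights and 0 to 1 over the leave-one-out fits. H2-Ab1 in CLP minus HSC gained one without CLP replicate 1 (0.81, 0.00987), so that count ran from 1 to 2. Ciita, never called, changed sign in DN3 minus ETP after another quantile normalization (0.025) and median centring (0.031), and over the leave-one-out fits ran from -0.044 to 0.24 in ETP minus HSC, -0.15 to 0.0073 in ETP minus LMPP and -0.011 to 0.013 in ETP minus CLP. The cause was not tested. Neighbouring pairs called ran from 4 to 6. The dim-gene filter left out Cd74 and Ciita. Counts over all genes moved by over 1.5 times with array weights or without 1 array: 1310 genes in DN3 minus ETP became 2030 with array weights and 695 to 849 without an ETP or DN3 array, 460 in ETP minus LMPP became 228 to 284, 502 in ETP minus CLP became 248 to 330, 1023 in ETP minus HSC became 597 and 612 without an ETP array, 199 in DN2 minus ETP became 92 without ETP replicate 2, 586 in LMPP minus HSC became 310 to 369, 228 in CLP minus LMPP became 98 to 139, and 358 in DN3 minus DN2 became 181 and 197. Replicate numbers are shared between populations, with no shared origin stated. The deviations of same-numbered arrays had r from -0.258 to 0.283. This r was positive in all 6 pairs among LMPP, CLP, ETP and DN3, above 0.1 in 4 of them, and negative in the 4 pairs with HSC. These signs cannot decide whether arrays were paired, in this numbering or another. The main fit did not take the numbers as pairs, and the replicate block used them as labelled. The replicate block left the members called at 5 in ETP minus HSC, 4 in ETP minus LMPP, 4 in ETP minus CLP, 5 in DN2 minus ETP and 5 in DN3 minus ETP. Without absence calls, low readings such as those of Ciita and Cd74 cannot be set against background.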

Other observations

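The 33 genes called higher in ETP than in each other population include genes of several kinds, and those named here were chosen after their values were seen. Mcpt1 and Mcpt2, proteases of mast cells, read 5.92 and 7.08, and 5.70 and 6.76, in ETP, and 3.84 at most on any other array. Prg3 and Prg2, proteins of eosinophil granules, averaged 7.65 and 7.10 in ETP and 5.97 and 5.52 at most elsewhere. S100a8, a calcium-binding protein abundant in neutrophils, averaged 8.28 in ETP and 6.62 in HSC, the next population. Cd7, a surface protein of early lymphoid cells, averaged 9.07 in ETP and 7.42 in DN2, and Fasl, the ligand of a death receptor, 7.98 in ETP and 6.69 in DN2. Nostrin, Cdh17, Has2, Gjb2, Dse, Cadm1 and St8sia1 are others of the 33. The part of granulocytes or mast cells in the class II signal was not tested.

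The 16 genes with the pattern of Ctss held Kynu, an enzyme of tryptophan breakdown, at means of 8.26 in LMPP, 7.29 in CLP and 7.54 in ETP, and 4.92 at most in HSC, DN2 and DN3. Tlr7, a sensor of single-stranded RNA, averaged 7.82 in LMPP, 8.03 in CLP and 7.18 in ETP, and 5.06 at most in those 3. Il18rap and Il18r1, the subunits of the interleukin 18 receptor, were both among the 16, with H2-Ob, Cd86 and Flt3.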
